A study of Mus musculus with 43 samples.

Results

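The genes described here encode the 4 orphan nuclear receptors of the NR5A and NR0B subfamilies that act in the gonad, Nr5a1, Nr5a2, Nr0b1 and Nr0b2. They were taken by name, as every probe set that the array's annotation assigned to one of these genes and to no other gene, which gave 8 of the 45007 probe sets and 4 of the 18184 genes measured. Nr5a2 had 4 probe sets, Nr5a1 had 2, and Nr0b1 and Nr0b2 had 1 each, and the probe set with the highest mean signal stands for its gene below unless another is named. Nr5a1 (steroidogenic factor 1) is required for the formation of the gonads and the adrenal cortex and switches on genes of steroid hormone synthesis. Nr5a2 (liver receptor homolog 1) binds the same DNA motif and is known in the mouse ovary as a granulosa cell factor that ovulation depends on. Nr0b1 (DAX-1) and Nr0b2 (small heterodimer partner, SHP) lack the usual DNA-binding domain and act mainly by binding other nuclear receptors, the NR5A proteins among them, and repressing them.

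Transcript levels were measured in gonads dissected without adjoining tissue from 43 individual mice, with 1 Affymetrix MOE430 v.2 array per mouse, in 15 groups of 3 arrays, except the 2 groups of embryonic day 15 (E15) with 2 arrays each. The forkhead transcription factor Foxl2 marks the somatic supporting cells of the ovary, Wnt4 is a secreted signal of the fetal ovary, and Kit is a receptor that germ cells need for survival. Foxl2-/- ovaries were collected at E13, E16 and the day of birth (P0), with Foxl2+/- ovaries at E16, and control ovaries came from E13, E16 and P0. Wnt4-null ovaries came from E15, with Wnt4+/- controls, and from P0. Ovaries homozygous for the hypomorphic KitWv allele, Wnt4-/- Foxl2-/- ovaries, KitWv/Wv Foxl2-/- ovaries and testes came from P0, and further testes from E13. The Wnt4-null and Kit mutant ovaries of P0 were also Foxl2+/-, and so were the E13 controls by their labels, although the study's methods name wild-type littermates there. By those methods the P0 testes were from Wnt4-null males. By the methods the E15 ovaries came from another strain mixture with C57BL/6J than the other ovaries, which mixed CD1, NIH-Swiss/BC and C57BL/6J, so that stage and strain cannot be told apart wherever E15 is set against another stage. The number of arrays limits the precision.

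Signals are given as multiples of the mean intensity of an array, which was the same in all arrays. The medians of the arrays lay between 0.182 and 0.299 of that mean, and replicates correlated at 0.922 to 0.982 over 41 pairs. The Foxl2 signal was 0.615 to 2.81 in Foxl2-/- ovaries, against 5.39 to 17.1 in control ovaries of the same stages. Wnt4-null ovaries had a Wnt4 signal of 0.203 to 0.421, against 0.590 to 1.33 in their controls. Neither pair of ranges overlaps. In the double mutants the Foxl2 signal was 3.61 to 7.75 in KitWv/Wv Foxl2-/- ovaries, against 19.8 to 33.1 in KitWv/Wv ovaries, and 0.693 to 0.839 in Wnt4-/- Foxl2-/- ovaries, against 5.21 to 5.99 in Wnt4-null ovaries. The KitWv/Wv Foxl2-/- range is below that of its KitWv/Wv arrays and overlaps that of the control ovaries. A second, dimmer Foxl2 probe set was at most 0.00645 in any Foxl2-/- array, the double mutants included. In KitWv/Wv Foxl2-/- ovaries it was at most 0.000228, against 0.344 to 0.595 in KitWv/Wv ovaries and 0.138 to 0.491 in control ovaries of E13, E16 and P0. Where the probes lie relative to the deleted part was not examined. Fold changes below are differences of log2(signal + 1% of the common mean) and understate the change of dim probe sets. They carry a standard error (SE) and an adjusted p from limma and the Benjamini-Hochberg method, taken over every probe set, and a gene is called where that p is under 0.05.

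Loss of Foxl2 was followed by a higher level of Nr0b1 at birth. Nr0b1 had signals of 0.807, 1.48 and 1.06 in Foxl2-/- ovaries at P0, against 0.224, 0.273 and 0.335 in control ovaries. Every mutant array was above every control array. The level was 3.85-fold higher (log2 fold change 1.95 ± 0.32 SE, 95% interval 1.30 to 2.59, limma adjusted p = 0.000336), and it passed the test without any one of the 6 arrays in turn (1.72 to 2.16). In whole gonads, more cells that express a gene and more RNA per cell cannot be told apart. At P0, 0.825% of all genes were called, and 2 of the 4 receptors, Nr0b1 and Nr5a2, were among them.

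Before birth the difference in Nr0b1 was not called. At E13 it had signals of 0.221, 0.330 and 0.601 in Foxl2-/- ovaries, against 0.443, 0.305 and 0.218 in control ovaries, and the groups overlapped (log2 fold change 0.19 ± 0.32, 95% interval -0.46 to 0.83). At E16 it had signals of 0.743, 0.517 and 0.574 in Foxl2-/- ovaries, against 0.316, 0.234 and 0.185 in control ovaries. These did not overlap, and the difference of 1.30 ± 0.32 (95% interval 0.65 to 1.95) missed the threshold narrowly (limma adjusted p = 0.0558). Quantile normalization, a larger pseudocount, a filter on dim probe sets and a fit of these groups alone each brought it under the threshold. The 3 Foxl2-/- arrays of E16 also carried more transcripts of red blood cells: the summed signal of 4 measured markers was 8.05 to 25.4 in Foxl2-/- ovaries, against 1.01 to 1.57 in control ovaries, and the part of this in the difference was not tested. None of the 4 receptors was called at E13, where 1.36% of all genes were, or at E16, where 0.66% were. With same-numbered E13 arrays paired, 1750 probe sets passed at E13 in place of 917, and still none of the receptors. The mean of the 3 stages called Nr0b1 and Nr5a2, in opposite directions, with 1.87% of all genes called. Nr0b1 was higher by 1.14 ± 0.18 (adjusted p = 0.00023). Nr5a2 fell by 0.92 ± 0.25 on the log2 scale (adjusted p = 0.0471), a call that was lost without any one of 13 of the 18 arrays in turn and kept under 1 of 7 other ways of processing (adjusted p = 0.0477 to 0.0985). The E13 controls were Foxl2+/- by their labels, which enters this mean. In a change from E13 to P0 it cannot be told apart from stage. The increase of the Nr0b1 response between E13 and P0, 1.76 ± 0.45, was not called (adjusted p = 0.078). It was called without the third Foxl2-/- array of E13, the highest of its group (2.13, adjusted p = 0.00925), and without the third control array of E13 (2.0, adjusted p = 0.0292).

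Ovaries with a single intact Foxl2 allele were measured at E16. Nr0b1 had signals of 0.559, 0.458 and 0.237 in Foxl2+/- ovaries, against 0.316, 0.234 and 0.185 in control ovaries. Of the 3 heterozygous arrays, 2 were above all controls and the third was within them. The red blood cell markers summed to 25.9 and 11.1 in the 2 higher arrays and 1.52 in the third, against 1.01 to 1.57 in control ovaries, and their part was not tested. The difference of 0.70 ± 0.32 was not called (adjusted p = 0.874), and neither was any other receptor. In that comparison 0.0055% of all genes were called.

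**Figure D1:**
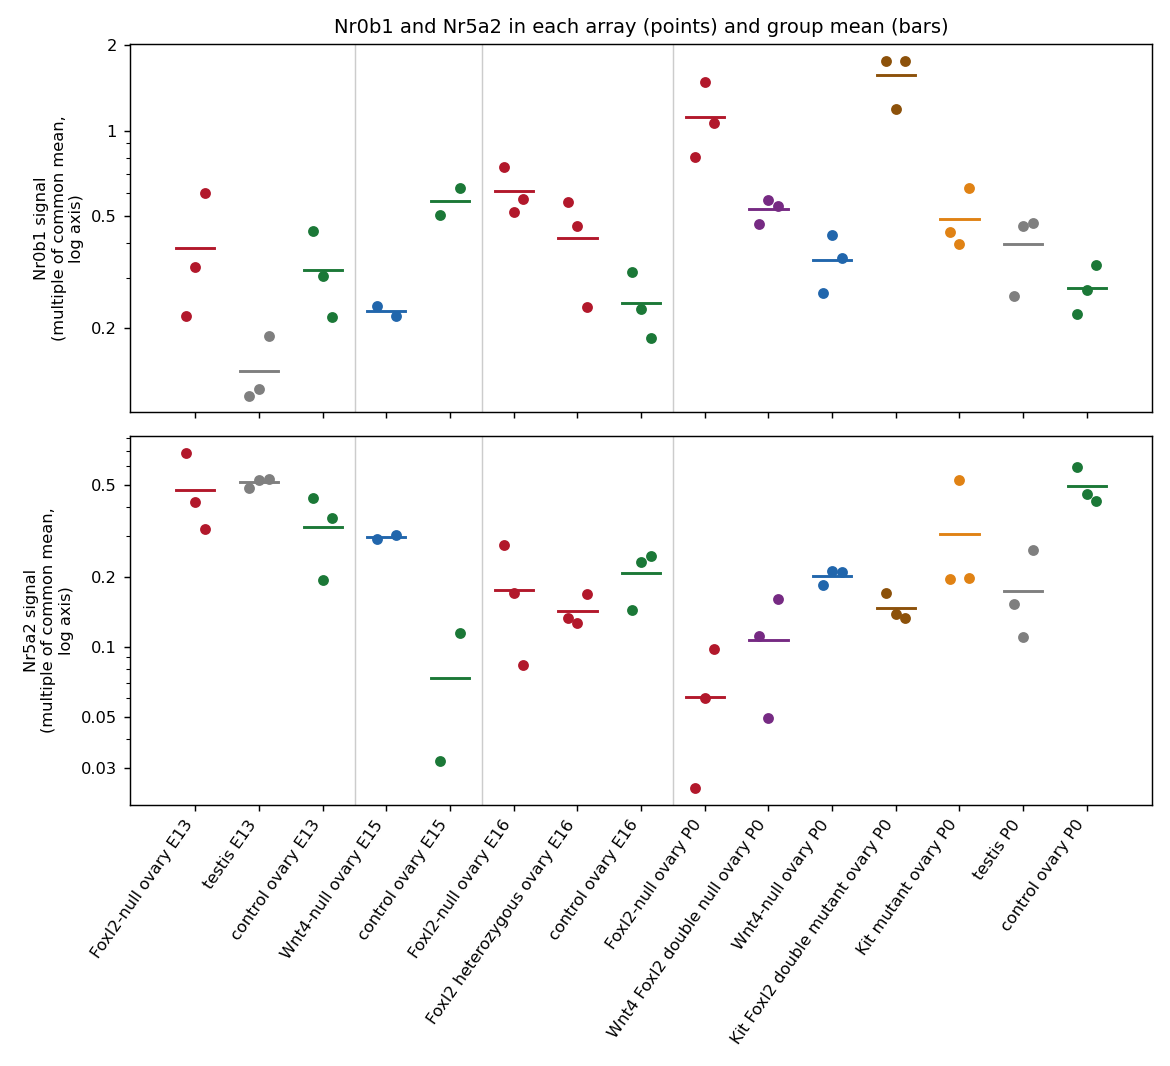
Nr0b1 (top) and Nr5a2 (bottom) signal in each of the 43 arrays, as a multiple of the common mean on a log axis, in the 15 groups ordered by stage, with a horizontal bar at each group mean. Nr0b1 is highest in KitWv/Wv Foxl2-/- ovaries (mean 1.58) and in Foxl2-/- ovaries at P0 (mean 1.12), and Nr5a2 is lowest in Foxl2-/- ovaries at P0 (mean 0.0608).

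Nr5a2 changed in the opposite direction at birth. It had signals of 0.0246, 0.0599 and 0.0978 in Foxl2-/- ovaries at P0, against 0.594, 0.455 and 0.428 in control ovaries. Every mutant array was below every control array. The log2 fold change was -2.96 ± 0.43 (95% interval -3.84 to -2.09, limma adjusted p = 5.63e-05), that is 0.128 of the control level, and it was called without any one array (-3.34 to -2.52). The other 3 probe sets of Nr5a2 fell too, by 3.98 ± 0.82, 2.50 ± 0.46 and 2.59 ± 0.53 on the log2 scale (adjusted p = 0.00741, 0.00203 and 0.00655). The oocyte markers, whose summed signal was 31 to 41.6 in Foxl2-/- ovaries and 36.3 to 83.4 in control ovaries, gave 0 calls among 6 genes. Of the 6 measured granulosa cell markers, without the listed Cyp19a1, which was not measured, 2 were called, both lower, the deleted gene itself and Esr2. Without Foxl2 the other 5 summed to 13.1 to 18.2 in Foxl2-/- ovaries and 11 to 13.9 in control ovaries, which overlap. The 5 Sertoli cell markers summed to 2.04 to 3.36 in Foxl2-/- ovaries and 1.52 to 2.12 in control ovaries, with 2 called higher. The part of these cells in the differences was not tested.

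Before birth the Nr5a2 difference was not called with the brightest probe set. At E13 Nr5a2 had signals of 0.686, 0.420 and 0.323 in Foxl2-/- ovaries, against 0.438, 0.194 and 0.358 in control ovaries. At E16 the signals were 0.275, 0.170 and 0.0836 in Foxl2-/- ovaries and 0.145, 0.232 and 0.246 in control ovaries. With this probe set both pairs of groups overlapped. The differences were 0.52 ± 0.43 (95% interval -0.35 to 1.40) at E13 and -0.33 ± 0.43 (95% interval -1.21 to 0.54) at E16. With E13 controls that were Foxl2+/- by label, stage and control genotype cannot be told apart in the next comparison. The change of the response between E13 and P0 was itself called, at -3.48 ± 0.61 (limma adjusted p = 0.00455), in a comparison that called 0.324% of all genes and no other receptor. It was called for the third brightest and the dimmest probe set (-3.16, adjusted p = 0.0185, and -3.41, adjusted p = 0.026) and not for the second brightest (-3.78 ± 1.16, adjusted p = 0.152). The second brightest probe set also gave the widest spread between arrays of a group. It had signals of 0.0646, 0.0359 and 3.69e-05 in Foxl2-/- ovaries at E16, against 0.163, 0.191 and 0.170 in control ovaries, a difference of -2.50 ± 0.82 that was not called (adjusted p = 0.308). These arrays did not overlap, and neither did those of the third brightest at E16 (0.0417 to 0.0494, against 0.0769 to 0.103 in control ovaries). The dimmest overlapped (0.0181 to 0.0384, against 0.0374 to 0.0711). Each Nr5a2 probe set had a lower group mean in Foxl2-/- than in control ovaries at E16. The study reports a reduced rise of Nr5a2 in Foxl2-null ovaries from about this stage.

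**Figure D2:**
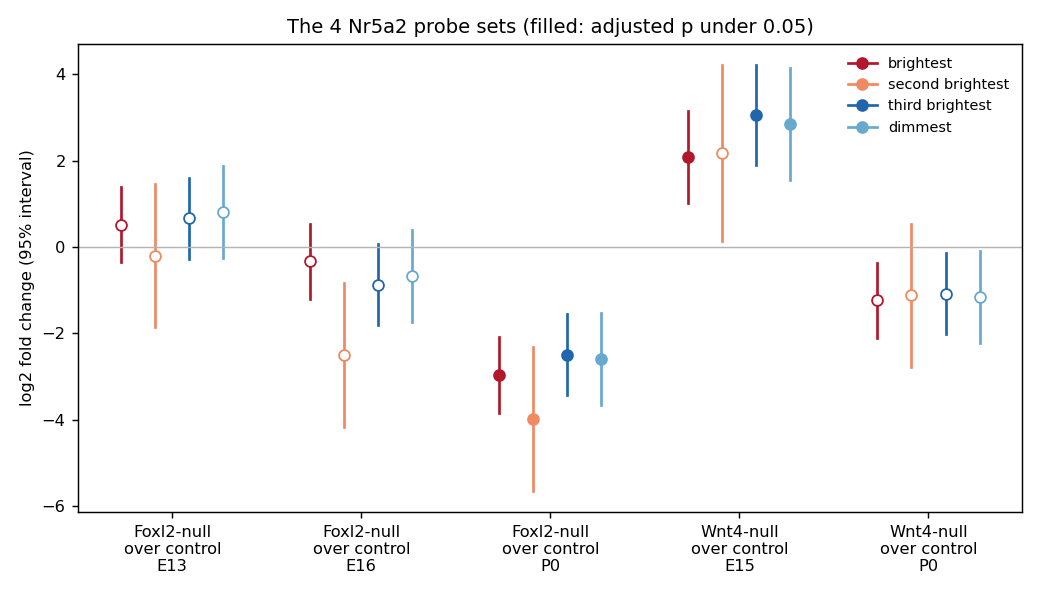
Log2 fold change of the 4 Nr5a2 probe sets on loss of Foxl2 (E13, E16, P0) or Wnt4 (E15, P0), with 95% intervals, filled where the adjusted p was under 0.05. All 4 lie below 0 for Foxl2 loss at P0 and above 0 for Wnt4 loss at E15, where 3 of the 4 were called.

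The promoters of these 2 genes are shown because the genes moved in opposite directions. Each run holds the 250 bases before an annotated RefSeq transcription start on GRCm38.p6, read along the gene, with matches to 3 searched motifs in capitals. Nr0b1 lies at chrX:86191525-86191774 (plus strand) and the first annotated start of Nr5a2 at chr1:136960449-136960698 (minus strand).
Nr0b1 promoter: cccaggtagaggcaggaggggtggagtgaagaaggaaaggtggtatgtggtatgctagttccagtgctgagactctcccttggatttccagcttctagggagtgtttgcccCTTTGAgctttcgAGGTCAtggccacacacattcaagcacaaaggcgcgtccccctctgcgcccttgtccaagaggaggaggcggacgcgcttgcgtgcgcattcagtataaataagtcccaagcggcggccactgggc
Nr5a2 promoter, first start: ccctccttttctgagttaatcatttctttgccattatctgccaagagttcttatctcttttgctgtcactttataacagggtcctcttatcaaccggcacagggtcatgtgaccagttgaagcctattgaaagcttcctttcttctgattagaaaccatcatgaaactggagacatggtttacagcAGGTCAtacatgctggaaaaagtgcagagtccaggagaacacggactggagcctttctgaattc
In the Nr0b1 run the capitals are CTTTGA, a core motif of the TCF/LEF factors through which many WNT proteins act, at -139 to -134, and AGGTCA, the core of the site that NR5A proteins bind, at -126 to -121. In the Nr5a2 run they are AGGTCA at -64 to -59. TAAACA, a core motif of forkhead factors, matched neither run. Motifs were searched on both strands in 32851 promoter windows of this length, none of the 3 overlaps another in these runs, and AGGTCA was found in 14% of windows, CTTTGA in 13.8% and TAAACA in 12%. The second annotated start of Nr5a2 and the start of Nr0b2 had no match to any of the 3.

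At E15, loss of Wnt4 was followed by a higher level of Nr5a2 and by lower values of Nr0b1, which missed the threshold. The E15 controls were apart from the other control ovaries in both genes. Their mean Nr5a2 was 0.0732, against 0.330 at E13, 0.208 at E16 and 0.492 at P0, and 0.297 in the Wnt4-null ovaries. Their mean Nr0b1 was 0.564, against 0.322, 0.245 and 0.277 at those stages, and 0.230 in the Wnt4-null ovaries. The part of the E15 controls in the differences was not tested. Nr5a2 had signals of 0.291 and 0.304 in Wnt4-null ovaries at E15, against 0.0321 and 0.114 in Wnt4+/- ovaries. Both mutant arrays were above both controls, the log2 fold change was 2.09 ± 0.53 (95% interval 1.01 to 3.16), and the gene was called (limma adjusted p = 0.0285) in a comparison that called 2.1% of all genes. With 2 arrays per group this call was not stable. It was lost without the first control array (1.31, adjusted p = 0.433), without the first Wnt4-null array (2.12, adjusted p = 0.178) and without the second (2.05, adjusted p = 0.129), and in a fit of the 4 arrays alone (2.09, adjusted p = 0.112). Of the other probe sets, the third brightest had 0.272 and 0.224 in Wnt4-null ovaries, against 0.0199 and 0.0218 in Wnt4+/- ovaries (3.06 ± 0.57, adjusted p = 0.00175). The dimmest probe set had 0.178 and 0.128 in Wnt4-null ovaries, against 0.0318 and 0.0019 in Wnt4+/- ovaries (2.85 ± 0.65, adjusted p = 0.0119). Both were called, and the second brightest was not (2.18 ± 1.0, adjusted p = 0.358).

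Nr0b1 had signals of 0.239 and 0.221 in Wnt4-null ovaries at E15, against 0.502 and 0.626 in Wnt4+/- ovaries. The groups did not overlap, and the difference of -1.25 ± 0.39 (95% interval -2.04 to -0.46) was not called (adjusted p = 0.0978). Nr5a2 was thus the only one of the 4 receptors called at E15. The summed signal of 5 adrenal cortex markers was 1.35 and 0.648 in the Wnt4-null arrays and 0.434 and 0.299 in the Wnt4+/- arrays, that of 4 red blood cell markers was 1.84 and 1.94 in Wnt4-null ovaries and 2.03 and 11.5 in Wnt4+/- ovaries, and their part was not tested. The 5 granulosa cell markers other than Foxl2 summed to 13.1 and 13.9 in Wnt4-null ovaries and 19 and 19.6 in Wnt4+/- ovaries, and 1 of the 6 was called, Esr2, which was higher. The stroma markers summed to 39.7 and 45.9 in Wnt4-null ovaries and 25.2 and 28.7 in Wnt4+/- ovaries, with 1 of 5 called higher, and the part of these cells was not tested either.

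At birth neither gene was called on loss of Wnt4. The Wnt4-null ovaries of P0 also lacked 1 Foxl2 allele, which cannot be told apart from the Wnt4 deletion there. Nr5a2 had signals of 0.185, 0.212 and 0.210 in Wnt4-null ovaries, against 0.594, 0.455 and 0.428 in control ovaries. The groups did not overlap, but the difference of -1.23 ± 0.43 (95% interval -2.11 to -0.36) missed the threshold (adjusted p = 0.054), as did those of the other 3 probe sets (-1.15 to -1.08). Scaling to the array median, a larger pseudocount and a fit of these groups alone each brought the first one under it. Nr0b1 had signals of 0.265, 0.427 and 0.354 in Wnt4-null ovaries, against 0.224, 0.273 and 0.335 in control ovaries, with overlap and a difference of 0.31 ± 0.32 (95% interval -0.33 to 0.96). In these Wnt4-null ovaries of P0 the oocyte markers summed to 7.21 to 16.2, against 36.3 to 83.4 in control ovaries, with all 6 called lower. The 5 granulosa cell markers other than Foxl2 summed to 4.63 to 7.38, against 11 to 13.9 in control ovaries, with 5 of the 6 called lower, Foxl2 among them, and the stroma markers to 53.7 to 59.5, against 24.7 to 39.3, with 4 of 5 called higher. The part of these cells was not tested. None of the 4 receptors was called at P0, although Wnt4 loss then called 16.9% of all genes. The change of the Nr5a2 response to Wnt4 loss between E15 and P0 was tested after these values had been seen, and it holds the lost Foxl2 allele too. It was -3.32 ± 0.68 (adjusted p = 0.00812), was lost without the first E15 control array (-2.54, adjusted p = 0.104), and was the only call among the receptors where 1.91% of all genes were called. Of the other 3 probe sets, the third brightest and the dimmest were called (-4.14 and -4.0) and the second brightest was not (-3.30, adjusted p = 0.228).

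The responses to the 2 deletions were then set against each other. At P0, where both mutants were measured, Nr0b1 was higher in Foxl2-/- than in Wnt4-null ovaries by 1.63 ± 0.32 (adjusted p = 0.000407) and Nr5a2 was lower by 1.73 ± 0.43 on the log2 scale (log2 fold change -1.73, adjusted p = 0.00544). Here 15.6% of all genes were called. The Wnt4-null ovaries of P0 were also Foxl2+/-, which cannot be told apart from the Wnt4 deletion in this comparison. Against control ovaries of P0, each gene's estimates for the 2 deletions lay on the same side of 0. Those for Wnt4 loss were smaller and not called, so these are differences in size. The Nr5a2 call was lost without the first Foxl2-/- array of P0, the lowest of its group (-1.29, adjusted p = 0.0821), and for the dimmest probe set (-1.44, adjusted p = 0.0706). The Foxl2 effect at E16 less the Wnt4 effect at E15 called Nr0b1 alone among the brightest probe sets (2.55 ± 0.50, 95% interval 1.53 to 3.58, adjusted p = 0.00707), with 0.984% of all genes called. Without the second E15 control array it was 2.40 and missed the threshold (adjusted p = 0.0534). For Nr5a2 this difference was -2.42 ± 0.68 (adjusted p = 0.081), and 2 of its other probe sets were called (-3.93, adjusted p = 0.0045, and -3.53, adjusted p = 0.0309). These differences also hold those of stage and strain, which cannot be told apart from the genotype.

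Loss of Foxl2 was also measured on top of the other mutations, where double mutants were set against ovaries that were Foxl2+/-. Nr0b1 had signals of 1.77, 1.19 and 1.77 in KitWv/Wv Foxl2-/- ovaries, against 0.438, 0.396 and 0.625 in KitWv/Wv ovaries. All double mutant arrays were above all single mutants (1.68 ± 0.32, adjusted p = 0.00391), and Nr0b1 was the only receptor called where 1.13% of all genes were. In a fit of these 6 arrays alone the p was 0.0686. The markers of oocytes summed to 0.627 to 1.3 in the double mutants and 2.11 to 28.3 in the Kit mutants, and those of the mesonephros to 0.847 to 1.33 in the double mutants and 0.35 to 0.618 in the Kit mutants, and their part was not tested. In Wnt4-null ovaries the loss of Foxl2 gave Nr0b1 signals of 0.468, 0.570 and 0.539 in Wnt4-/- Foxl2-/- ovaries, against 0.265, 0.427 and 0.354 in Wnt4-null ovaries. These did not overlap, and the difference of 0.60 ± 0.32 (95% interval -0.05 to 1.25) was not called (adjusted p = 0.579), nor was any other receptor where 0.924% of genes were.

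Nr5a2 had signals of 0.170, 0.139 and 0.133 in KitWv/Wv Foxl2-/- ovaries, against 0.197, 0.527 and 0.198 in KitWv/Wv ovaries. It had 0.111, 0.0492 and 0.160 in Wnt4-/- Foxl2-/- ovaries, against 0.185, 0.212 and 0.210 in Wnt4-null ovaries. Neither pair overlapped and neither was called (-0.86 ± 0.43, adjusted p = 0.519, and -0.99 ± 0.43, adjusted p = 0.457). The estimate for Foxl2 loss alone, against control ovaries, was -2.96. The interactions also hold the lost Foxl2 allele of the single mutants, and they were not called. They were 2.10 ± 0.61 with Kit (adjusted p = 0.383), where 0.022% of all genes were called, and 1.98 ± 0.61 with Wnt4 (adjusted p = 0.237), where 0.379% were. For Nr0b1 the interactions were -0.27 ± 0.45 with Kit and -1.35 ± 0.45 with Wnt4 (adjusted p = 0.989 and 0.331), and none of the 4 receptors was called in either.

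**Figure D3:**
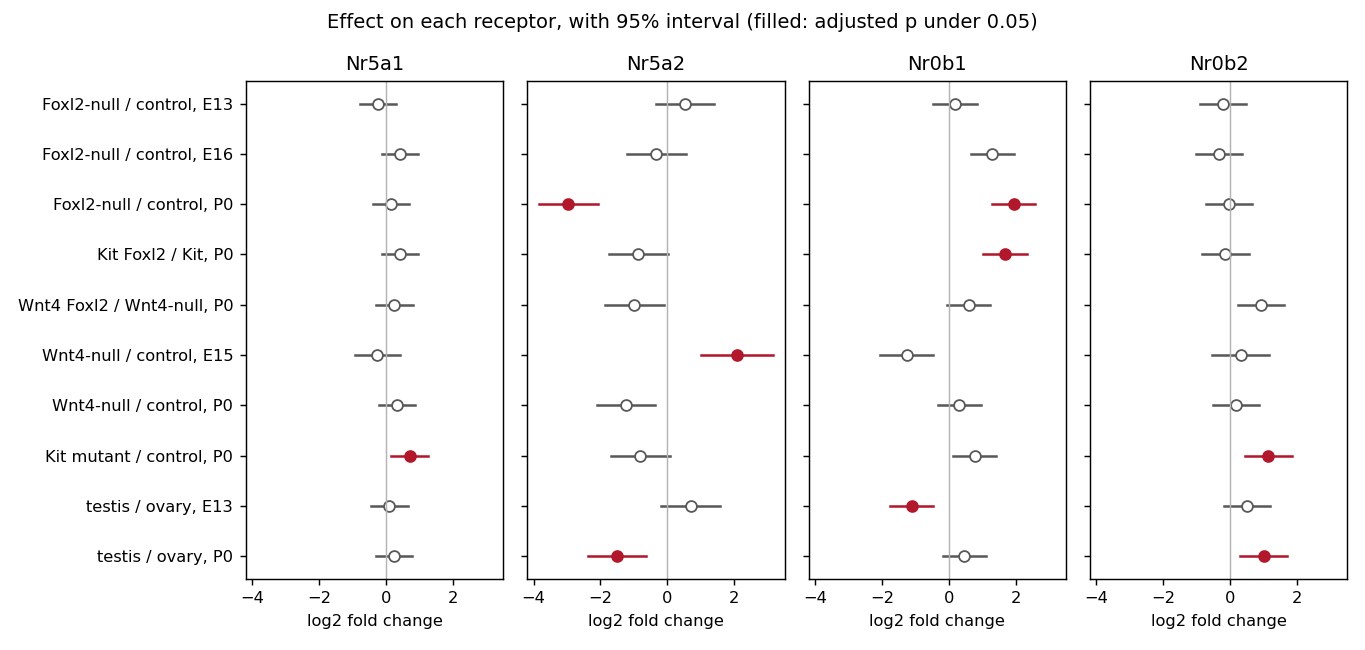
Log2 fold change of each receptor with its 95% interval in 10 comparisons, mutant over control or testis over ovary, filled where the adjusted p was under 0.05. Nr0b1 lies to the right and Nr5a2 to the left for Foxl2 loss at P0 (1.95 and -2.96), and the 2 genes change sides for Wnt4 loss at E15 (-1.25, not called, and 2.09).

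The brightest probe set of Nr5a1, the activator that the NR0B proteins repress, was not called on loss of Foxl2 or Wnt4. It had signals of 0.782, 1.17 and 0.642 in Foxl2-/- ovaries at P0, against 0.756, 0.769 and 0.737 in control ovaries. The control arrays lay within the range of the mutants, and the difference was 0.15 ± 0.27 (95% interval -0.40 to 0.70). Over the 3 stages the mean difference was 0.11 ± 0.16 (95% interval -0.21 to 0.43). At E16 the arrays did not overlap, with 1.30, 0.985 and 1.05 in Foxl2-/- ovaries and 0.972, 0.940 and 0.615 in control ovaries (0.42 ± 0.27, adjusted p = 0.908). On Wnt4 loss it had 0.851 and 0.839 in Wnt4-null ovaries at E15, against 1.04 and 0.998 in Wnt4+/- ovaries (-0.27 ± 0.33). At P0 it had 1.04, 0.871 and 0.947 in Wnt4-null ovaries, against 0.756, 0.769 and 0.737 in control ovaries (0.33 ± 0.27). Neither pair overlapped and neither was called (adjusted p = 0.825 and 0.533). The second probe set of Nr5a1 was not called on either loss. At P0 it had 0.282, 0.302 and 0.313 in Foxl2-/- ovaries and 0.370, 0.385 and 0.307 in Wnt4-null ovaries, against 0.273, 0.246 and 0.185 in control ovaries. Both mutants were above all controls (0.35 ± 0.28, adjusted p = 0.924, for Foxl2 loss and 0.58 ± 0.28, adjusted p = 0.198, for Wnt4 loss), while at E13, E15 and E16 the mutant and control arrays overlapped.

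Nr0b2 was likewise not called on loss of either gene. It had signals of 0.0376, 0.0728 and 0.0844 in Foxl2-/- ovaries at P0, against 0.0726, 0.0663 and 0.0532 in control ovaries. The groups overlapped there and at E13 and E16, with differences of -0.22, -0.33 and -0.03 (± 0.34 each) at E13, E16 and P0. Wnt4 loss gave 0.32 ± 0.42 at E15 and 0.18 ± 0.34 at P0. The largest of its differences on loss of Foxl2 came in Wnt4-null ovaries, with 0.128, 0.159 and 0.159 in Wnt4-/- Foxl2-/- ovaries and 0.0684, 0.0589 and 0.0977 in Wnt4-null ovaries. These did not overlap, and the difference of 0.92 ± 0.34 was not called (adjusted p = 0.322).

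**Figure D4:**
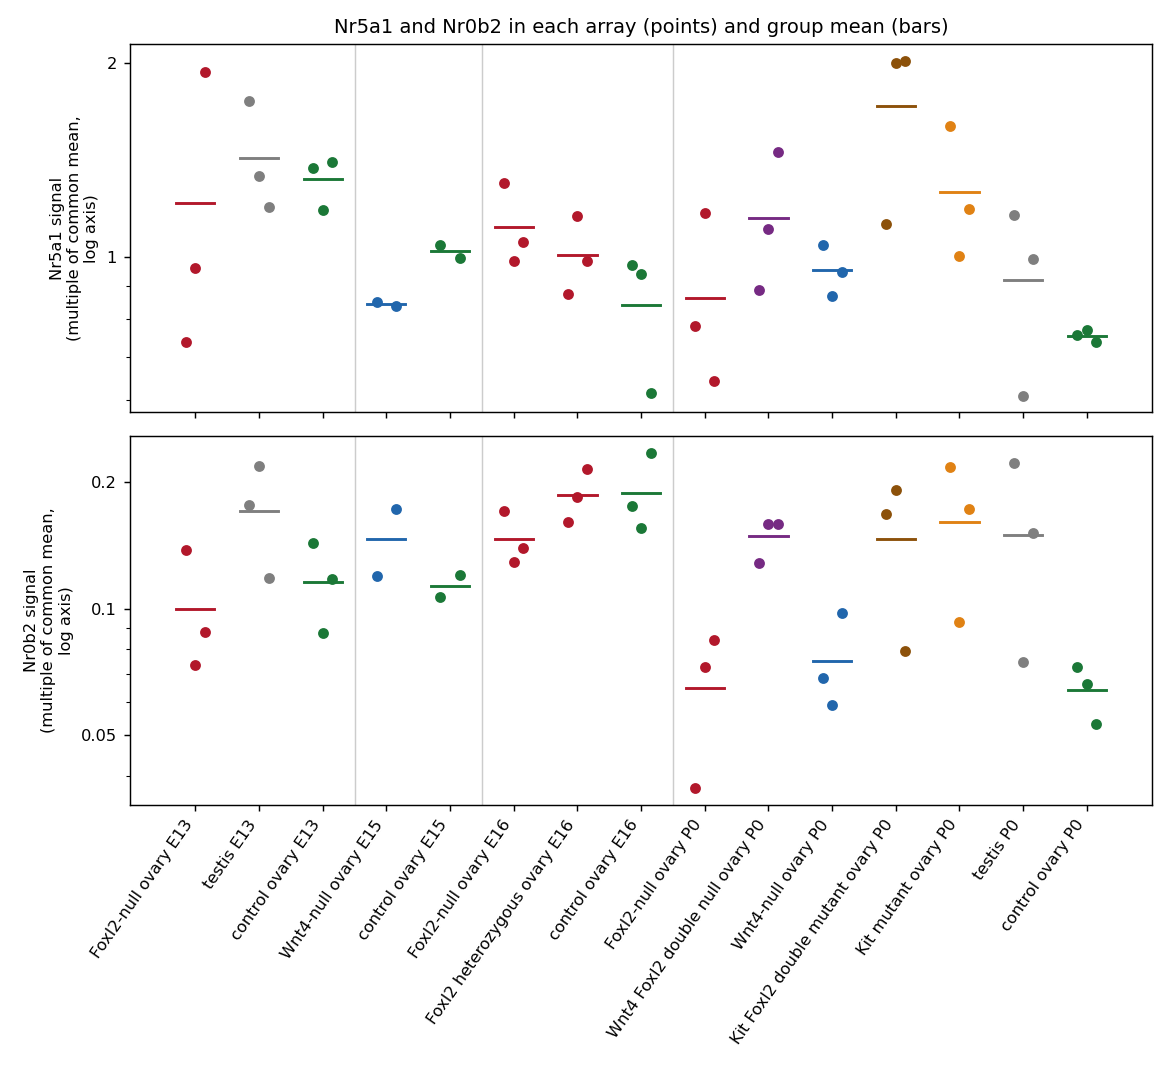
Nr5a1 (top) and Nr0b2 (bottom) signal in each of the 43 arrays, as a multiple of the common mean on a log axis, in the 15 groups ordered by stage, with a horizontal bar at each group mean. The group means of Nr5a1 lie between 0.754 and 1.71 and those of Nr0b2 between 0.064 and 0.188, and neighbouring groups overlap.

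Mutation of Kit called Nr5a1 and Nr0b2, where 30.6% of all genes were called. The Kit mutant ovaries also lacked 1 Foxl2 allele, which cannot be told apart from the Kit mutation here. The 5 germ cell markers summed to 0.693 to 2.24 in Kit mutant ovaries and 20.4 to 27.5 in control ovaries, and their part was not tested. Nr5a1 had signals of 1.59, 1.0 and 1.19 in Kit mutant ovaries, against 0.756, 0.769 and 0.737 in control ovaries (0.71 ± 0.27, adjusted p = 0.0488; second probe set 0.86 ± 0.28, adjusted p = 0.0225). Nr0b2, dim in every array, had 0.217, 0.0931 and 0.172 in Kit mutant ovaries, against 0.0726, 0.0663 and 0.0532 in control ovaries (1.14 ± 0.34, adjusted p = 0.0132). Neither gene overlapped between the groups. The median of all probe sets was itself 0.28 higher in this comparison, and with arrays scaled to their median both calls were lost (Nr5a1 0.43, adjusted p = 0.386; Nr0b2 0.88, adjusted p = 0.0534). Nr5a1 was called in 1 of 6 fits without an array and Nr0b2 in 4 of 6. The Nr0b2 call was lost without the third control array (1.03, adjusted p = 0.054) or the first Kit mutant array (0.90, adjusted p = 0.0949). Nr0b1 did not overlap either and was not called (0.78 ± 0.32, adjusted p = 0.0667). Nr5a2 was not called (-0.80 ± 0.43, adjusted p = 0.166), except without the second Kit mutant array (-1.26, adjusted p = 0.0439). That array had 0.527 with the brightest probe set, above 2 of the 3 controls, and 1.01 with the second brightest, where the other 2 arrays had 7.24e-06 and 0.202.

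The receptors called between testis and ovary were Nr0b1 at E13, and Nr5a2 and Nr0b2 at P0. The P0 testes were Wnt4-null by the methods and the E13 ovaries Foxl2+/- by label, which cannot be told apart from sex here. At E13 Nr0b1 had signals of 0.115, 0.122 and 0.187 in testes, against 0.443, 0.305 and 0.218 in ovaries. All testes were below all ovaries, and Nr0b1 was lower by 1.11 ± 0.32 on the log2 scale (log2 fold change -1.11, adjusted p = 0.0277), the only receptor called where 8.14% of all genes were. The call held in 2 of 6 fits without an array and was lost in a fit of these groups alone (adjusted p = 0.0818). The arrays whose omission ended it were the first and second testis (-0.99, adjusted p = 0.124, and -1.02, adjusted p = 0.119) and the first and second ovary (-0.86, adjusted p = 0.155, and -1.12, adjusted p = 0.0674). At P0 Nr5a2 had 0.153, 0.110 and 0.262 in testes, against 0.594, 0.455 and 0.428 in ovaries, without overlap (-1.51 ± 0.43, adjusted p = 0.00855). Without the second testis it was -1.24 (adjusted p = 0.0609). Nr0b2 had 0.222, 0.0747 and 0.151 in testes at P0, against 0.0726, 0.0663 and 0.0532 in ovaries, without overlap (1.0 ± 0.34, adjusted p = 0.0293), a call kept in 2 of 6 fits without an array and lost with arrays scaled to their median (0.82, adjusted p = 0.0679). Nr5a2 and Nr0b2 were the receptors called at P0, where 28.9% of all genes were and where the median of all probe sets was 0.17 higher in testes. The brightest Nr5a1 probe set was not called (0.24 ± 0.27), whereas the second had 0.864, 0.496 and 0.693 in testes and 0.273, 0.246 and 0.185 in ovaries (1.49 ± 0.28, adjusted p = 0.000121), so the 2 probe sets of this gene disagreed.

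Stages were also compared within a sex. Testes of P0 had more Nr0b1 than those of E13, with 0.259, 0.459 and 0.471 at P0 and 0.115, 0.122 and 0.187 at E13 (1.40 ± 0.32, adjusted p = 0.00142). They had less Nr5a2, with 0.153, 0.110 and 0.262 at P0 and 0.485, 0.527 and 0.530 at E13 (-1.59 ± 0.43, adjusted p = 0.00739), although without the second P0 testis the p was 0.0612. Neither gene overlapped between these stages, 22.9% of all genes were called there, and age in testes cannot be told apart from the Wnt4 deletion of the P0 testes. In control ovaries Nr5a2 had 0.594, 0.455 and 0.428 at P0 and 0.145, 0.232 and 0.246 at E16 (1.23 ± 0.43, adjusted p = 0.0301), and the p passed the threshold in 3 of 6 fits without an array. It was lost without the first E16 array (1.0, adjusted p = 0.119), the first P0 array (1.09, adjusted p = 0.0916) or the second P0 array (1.27, adjusted p = 0.0602). Nr0b2 had 0.0726, 0.0663 and 0.0532 at P0 and 0.176, 0.155 and 0.234 at E16 (-1.41 ± 0.34, adjusted p = 0.00241). Both were called among 30.9% of all genes, in a comparison whose median over all probe sets was -0.36. With arrays scaled to their median Nr5a2 was 1.62 and Nr0b2 -1.04, both still called. The second Nr5a1 probe set was lower at P0 than at E16 (-1.0 ± 0.28, adjusted p = 0.00766) and the brightest was not called (-0.13 ± 0.27). Between E13 and E16 none of the receptors was called in control ovaries, where 9% of all genes were and the median was 0.23. The E13 controls were Foxl2+/- by label, which cannot be told apart from stage.

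Over all 15 groups, the group means of the brightest probe sets ranged 11.1-fold for Nr0b1, 8.46-fold for Nr5a2, 2.94-fold for Nr0b2 and 2.27-fold for Nr5a1. This order depended on the probe set, since the second and the third brightest of Nr5a2 ranged 21.0-fold and 11.9-fold and the second of Nr5a1 3.48-fold. For Nr0b1 the order began with KitWv/Wv Foxl2-/- ovaries (1.58 ± 0.33 SD) and Foxl2-/- ovaries at P0 (1.12 ± 0.34), whose arrays were above those of the next group, Foxl2-/- ovaries at E16 (0.611 ± 0.118). It went on without a gap between neighbours through the E15 controls (0.564), the Wnt4-/- Foxl2-/- ovaries (0.526), the Kit mutants (0.486), the Foxl2+/- ovaries (0.418), the P0 testes (0.396), the Foxl2-/- ovaries of E13 (0.384), the Wnt4-null ovaries of P0 (0.349) and the control ovaries of E13 (0.322), P0 (0.277) and E16 (0.245), to the Wnt4-null ovaries of E15 (0.230). The E13 testes came last (0.142 ± 0.0396), below all arrays of the group before them. Of the 14 neighbouring pairs in this order, 12 overlapped.

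For Nr5a2 the order began with the E13 testes (0.514 ± 0.0249 SD), the control ovaries of P0 (0.492 ± 0.0893) and the Foxl2-/- ovaries of E13 (0.476 ± 0.188). Then came the control ovaries of E13 (0.330), the Kit mutants (0.307) and the Wnt4-null ovaries of E15 (0.297), whose arrays were above those of the next group, the control ovaries of E16 (0.208). The Wnt4-null ovaries of P0 (0.202), the Foxl2-/- ovaries of E16 (0.176), the P0 testes (0.175), the KitWv/Wv Foxl2-/- ovaries (0.147), the Foxl2+/- ovaries (0.143) and the Wnt4-/- Foxl2-/- ovaries (0.107) followed. The E15 controls (0.0732 ± 0.058) and the Foxl2-/- ovaries of P0 (0.0608 ± 0.0366) were lowest, and 13 of the 14 neighbouring pairs overlapped. Nr5a1 ran between 1.71 ± 0.508 in KitWv/Wv Foxl2-/- ovaries and 0.754 ± 0.016 in control ovaries of P0, and Nr0b2 between 0.188 ± 0.0409 in control ovaries of E16 and 0.064 ± 0.00987 in control ovaries of P0. In both, all 14 neighbouring pairs overlapped.

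As a description, the group means of Nr5a2 and Nr0b1 correlated at -0.70 over the 15 groups, and those of the other 3 Nr5a2 probe sets with Nr0b1 at -0.77, -0.77 and -0.63. The 4 Nr5a2 probe sets correlated with each other at 0.73 to 0.95 and the 2 of Nr5a1 at 0.60. The groups share stages, genotypes and array scale, and these values carry no test. Among 10728 to 10729 candidate genes, those whose 15 group means were most like Nr0b1 were Ifit2 (0.91), Alad (0.86), Smoc1 (0.85), Tpst2 (0.84) and Atp6ap2 (0.84). For Nr5a2 they were Hey2 (0.82), Psmb4 (0.78), Icam2 (0.78), Kat7 (0.75) and Arhgef15 (0.73). For Nr5a1 they were Cd99l2 (0.88), Pgpep1 (0.88), Cyp2s1 (0.87), Chchd5 (0.85) and Hira (0.85), and for Nr0b2 Cflar (0.92), Ubr1 (0.91), Trmt13 (0.90), Mtbp (0.90) and Creb1 (0.89).

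Known targets of the NR5A receptors include the enzymes of steroid synthesis. Of 19 listed genes, Cyp19a1 (aromatase), Hsd3b6, Insl3, Lhcgr, Akr1b7 and Prlr were not measured and the other 13 were. At P0, 8 of them rose and 0 fell in Wnt4-null ovaries, with a median log2 fold change of 1.63, against -0.03 for all genes, of which 16.9% were called. The smallest p-values were those of Hsd17b1, which makes estradiol from estrone (mean signal 4.94 in Wnt4-null and 0.0951 in control ovaries, 5.63 ± 0.47), Hsd17b3, which makes testosterone (0.968 in Wnt4-null and 0.0365 in control ovaries, 4.24 ± 0.47), Cyp17a1, needed for androgen synthesis (2.50 in Wnt4-null and 0.0705 in control ovaries, 5.51 ± 0.70), and Star, which delivers cholesterol to mitochondria (4.75 in Wnt4-null and 0.791 in control ovaries, 2.55 ± 0.32). Their adjusted p-values were 1.15e-10, 5.95e-08, 6.28e-07 and 7e-07. At E15, 2 of the 13 were higher in Wnt4-null ovaries and 1 was lower. The median was 0.83, against 0.04 for all genes, of which 2.1% were called. Hsd17b1 rose by 4.57 ± 0.57 (adjusted p = 6.83e-06) and Cyp11a1, the first enzyme of steroid synthesis, by 3.21 ± 0.79 (adjusted p = 0.0234). Amhr2, the receptor of anti-Müllerian hormone, fell by 1.13 ± 0.29 (adjusted p = 0.0331).

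In the same Wnt4-null arrays of P0, the markers of the adrenal cortex summed to 3.12 to 6.68, against 0.298 to 0.446 in control ovaries, and the 2 measured Leydig cell markers to 2.03 to 5.85, against 0.0329 to 0.213. Of the adrenal cortex markers, 2 of 5 measured were called higher and 0 lower, and both Leydig cell markers were higher. Cyp17a1 and Hsd17b3 are on both the target and the Leydig cell list and Mc2r on both the target and the adrenal list, and the part of such cells in the target values was not tested. The 5 liver markers summed to 2.74 to 3.03 in Wnt4-null ovaries and 0.551 to 0.816 in control ovaries.

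Loss of Foxl2 gave a single call among the 13 measured targets at P0, where 0.825% of all genes were called. Cyp19a1, whose rise the study reports as strongly reduced in Foxl2-null ovaries, was not among them. The median was -0.03 for the 13 genes and for all genes alike. Hsd3b1, an enzyme that completes the synthesis of progesterone, had a mean signal of 0.584 in Foxl2-/- ovaries and 1.81 in control ovaries and fell by 1.65 ± 0.35 on the log2 scale (adjusted p = 0.00887). It also fell in KitWv/Wv Foxl2-/- ovaries, by 2.59 ± 0.35 (0.355, against 2.18 in KitWv/Wv ovaries, adjusted p = 3.39e-05). No target was called at E13 or E16, where 1.36% and 0.66% of all genes were. Set directly against Wnt4-null ovaries, which were also Foxl2+/-, Foxl2-/- ovaries of P0 had 9 of the 13 targets lower and 0 higher. The median was -2.22, against 0.02 for all genes, of which 15.6% were called. In the testes of P0, Wnt4-null by the methods, 10 targets were higher and 1 lower than in control ovaries. The median was 2.47, against 0.07 for all genes, of which 28.9% were called. There Hsd17b3 rose by 7.14 ± 0.47 (adjusted p = 9.87e-14), and the Leydig cell markers summed to 8.43 to 12.2 in testes, against 0.0329 to 0.213 in ovaries.

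**Figure D5:**
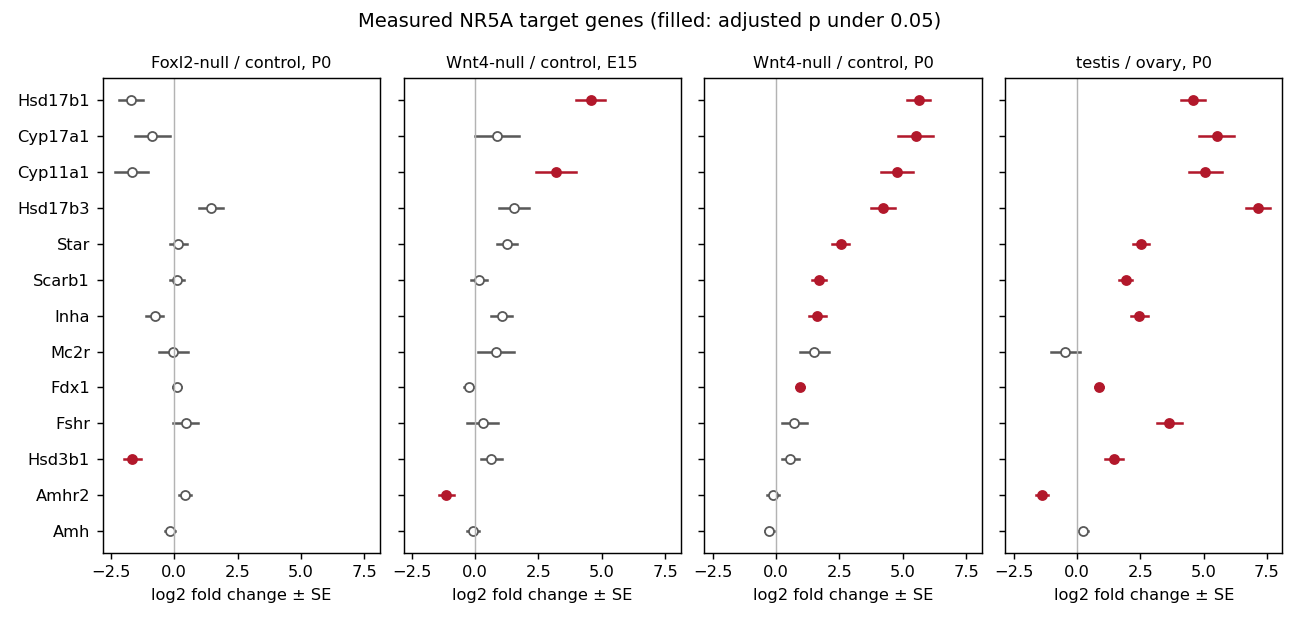
Log2 fold change (± SE) of the 13 measured NR5A target genes on loss of Foxl2 at P0, loss of Wnt4 at E15 and at P0, and in testis over ovary at P0, filled where the adjusted p was under 0.05. For Foxl2 loss Hsd3b1 alone is filled, while 8 genes are filled to the right for Wnt4 loss at P0 and 10 for the testis.

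The genes listed as possible regulators of Nr5a1, Sox9 among them, gave no call on loss of Foxl2 at any stage, among 11 measured of 13. In Wnt4-null ovaries at E15, Emx2, a homeobox gene needed for gonad formation, fell by 1.18 ± 0.32 (adjusted p = 0.0437) and Sox9, the main Sertoli cell factor, by 1.60 ± 0.44 (adjusted p = 0.0489). At P0, 3 were higher and 1 lower in Wnt4-null ovaries, where 16.9% of all genes were called. Tcf21, a mesenchymal bHLH factor, rose by 1.47 ± 0.21, the LIM homeobox gene Lhx9 by 1.36 ± 0.21 and the nuclear receptor Nr2f2 by 0.90 ± 0.18, and Emx2 fell by 1.16 ± 0.26 (adjusted p = 5.44e-06, 1.46e-05, 0.000456 and 0.00163). The medians of this list stayed near those of all genes (-0.10 against 0.04 at E15 and -0.05 against -0.03 at P0). Loss of Foxl2 in Wnt4-null ovaries raised Sox9 by 1.84 ± 0.36 (adjusted p = 0.00418), and the 5 Sertoli cell markers, Sox9 among them, summed to 16.4 to 17.4 in Wnt4-/- Foxl2-/- ovaries and 5.39 to 6.66 in Wnt4-null ovaries. Of 11 measured NR5A coregulators, the coactivator gene Ncoa1 fell by 0.66 ± 0.17 in Foxl2-/- ovaries at E13 (adjusted p = 0.0369), and the gene of the repressor Ddx20 fell by 0.61 ± 0.15 in Wnt4-null ovaries at P0 (adjusted p = 0.00335). No coregulator was called on loss of Foxl2 at E16 or P0, or of Wnt4 at E15.

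Among 37 other nuclear receptor genes measured of 40 listed, loss of Foxl2 at P0 and loss of Wnt4 at E15 each called 1, the same gene, where 0.825% and 2.1% of all genes were called. Esr2, estrogen receptor beta of granulosa cells, had signals of 0.000485, 0.0092 and 0.0555 in Foxl2-/- ovaries at P0, against 0.115, 0.190 and 0.217 in control ovaries, and fell by 2.92 ± 0.51 on the log2 scale (adjusted p = 0.000816). At E15 it had 0.271 and 0.265 in Wnt4-null ovaries, against 0.000563 and 0.0360 in Wnt4+/- ovaries, and rose by 3.65 ± 0.62 (adjusted p = 0.000679). Neither pair of groups overlapped. The E15 controls were also below the control ovaries of E13 (0.0640 to 0.0965) and E16 (0.0623 to 0.119) in Esr2. The change of the Esr2 response to Foxl2 loss between E13 and P0 was called as well (-3.61 ± 0.72, adjusted p = 0.0132), with E13 controls that were Foxl2+/- by label. At P0 in Wnt4-null ovaries 4 of the 37 were called higher and 3 lower, a share near the 16.9% of all genes called there. The smallest p-values were those of Nr4a1, an immediate early gene (2.33 ± 0.39), Nr6a1, the germ cell nuclear factor (-1.89 ± 0.34), Nr2f2 (0.90 ± 0.18) and Rxra, a partner of many nuclear receptors (1.0 ± 0.21), with adjusted p-values of 5.35e-05, 0.000133, 0.000456 and 0.000839.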

How the data were processed

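Gonads of 43 mice were measured on Affymetrix MOE430 v.2 arrays. RNA was extracted with the MELT system, amplified linearly in a single round (Pico Ovation) and labelled with biotin. The authors deposited a linear intensity for each probe set, made with plier and brought to a common global mean, and the submitters' processing notes also name GCOS 1.3. Such scaling can shift the differences between arrays whose overall distributions differ. The genome build is not given in the sources used here. Of 45071 deposited probe sets, 64 controls were left out. The platform's annotation gave 1 symbol for 34927, several for 930 and none for 9150, and 34723 could be tied to RefSeq by gene ID.

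Each intensity was divided by the common mean (15740000), 1% of that mean was added as a pseudocount, and the log2 of these deposited values was tested with limma 3.58.1 in R 4.3.3. A single fit held the 15 group means of all arrays, with a trend in the prior variance and 28 residual degrees of freedom. Tests were two-sided, with the Benjamini-Hochberg method over 45007 probe sets in each comparison. Of 21 comparisons, 20 were planned and 1, the change of the Wnt4 effect between E15 and P0, was added after the values had been seen. The study's own contrast program (Focus) was not used here. Replicates are separate mice.

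All probe sets of the 4 receptors were tested whatever their values, and the brightest stands for its gene. From each gene list at most 4 genes per comparison were named, those with the smallest adjusted p, Foxl2 and Wnt4 served as a check of the labels, and the 5 genes most like a receptor were those with the highest Pearson correlation of group means, among probe sets above the median level. The members, gene lists and tests were chosen with earlier results of these data known. Array numbers were checked as pairs by the correlation of residuals between same-numbered arrays. At E13 these were 0.132 to 0.158 for Foxl2-/- and control arrays, each best with its own number (3 of 3). In no other comparison did every pair reach 0.1. Alternatives covered the pseudocount, quantile normalization, scaling to the array median, a filter on dim probe sets, the arrays fitted, the trend, the replicate block, the other probe sets and leaving out each array. The fit was tested on simulated data.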

Additional observations from a re-analysis of the deposited data

Results flagged for a closer look

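The response of Nr5a2 to loss of Foxl2 differed between birth and E13, by a test of the difference of the effects itself. The effect was -2.96 ± 0.43 at P0 and 0.52 ± 0.43 at E13 on the log2 scale (SE), and the difference of -3.48 ± 0.61 had an adjusted p of 0.00455 (limma, Benjamini-Hochberg). All 3 Foxl2-/- ovaries of P0 were below the controls, while at E13 the groups overlapped. In a fit of these 4 groups alone the p was 0.0904, and for the second brightest of its 4 probe sets it was 0.152. The E13 controls were Foxl2+/- by their labels, so that stage and the Foxl2 alleles of the controls cannot be told apart here.

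The response of Nr5a2 to loss of Wnt4 differed between birth and E15 by the same kind of test, which was added after the values had been seen. The effect was -1.23 ± 0.43 at P0 and 2.09 ± 0.53 at E15, and the difference of -3.32 ± 0.68 had an adjusted p of 0.00812. Both Wnt4-null ovaries of E15 were above their controls and all 3 of P0 below theirs. The P0 Wnt4-null ovaries also lacked 1 Foxl2 allele, and those of E15 were set against Wnt4+/- ovaries, so that stage, strain background and the Foxl2 allele cannot be told apart here. Without the first E15 control array the difference was -2.54 (adjusted p = 0.104). No cause was tested for either difference.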

How the results depend on the processing

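Among 630 values of the 4 receptors under other processing, 592 kept their direction and side of the threshold, 24 lost and 7 gained a call, and 7 lay on the other side of 0. Of 84 values from other probe sets, 63 kept both, 11 lost and 5 gained a call and 5 changed sign. No change of sign involved a call. The filter on dim probe sets left out the brightest probe sets of Nr5a2 and Nr0b2, so it gave no value for these genes. For Nr0b1 the Foxl2 effect at E16 passed the threshold with a pseudocount of 5% (1.17, adjusted p = 0.0497), quantile normalization (1.46, 0.0282), the filter on dim probe sets (1.30, 0.0385) and a fit of these groups alone (1.30, 0.0195), while that in Kit mutants lost its call in such a fit (1.68, 0.0686). Without 1 array the Nr0b1 values were 2.37 to 2.75 for the Foxl2 effect at E16 less the Wnt4 effect at E15 (called in 9 of 10) and -0.19 to 0.51 for Foxl2 loss at E13. For Nr5a2 the Wnt4 effect at E15 lost its call with quantile normalization (1.82, 0.0694), in a fit of its groups alone (2.09, 0.112) and for the second brightest probe set (2.18, 0.358), and was 1.31 to 2.86 without 1 array (called in 1 of 4). The Wnt4 effect at P0 gained a call with a pseudocount of 5% (-1.10, 0.024), median scaling (-1.24, 0.0445) and its groups alone (-1.23, 0.00501). Foxl2 loss at E13 was -0.20 for the second brightest probe set. Foxl2-/- over Wnt4-null ovaries at P0 was -1.44 (0.0706) for the dimmest probe set and -2.11 to -1.29 without 1 array (called in 5 of 6), and the Foxl2 effect at E16 less the Wnt4 effect at E15 was -3.93 (0.0045) and -3.53 (0.0309) for 2 other probe sets and -3.20 to -1.64 without 1 array (called in 1 of 10). The change of the Nr5a2 response to Foxl2 loss between E13 and P0 missed the threshold in a fit of its groups alone (-3.48, 0.0904) and for the second brightest probe set (-3.78, 0.152), and that of Nr0b1 was 1.43 to 2.13 without 1 array (called in 2 of 12). The change of the Nr5a2 response to Wnt4 loss was -3.30 (0.228) for the second brightest probe set and -4.10 to -2.54 without 1 array (called in 9 of 10).

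With the replicate block, Nr0b1 at P0 on loss of Foxl2 was 1.95 (adjusted p = 0.000387), Nr5a2 was -2.96 (9.34e-05), and the pairing changed 1 call of the 4 receptors, Nr5a1 in Kit mutants (0.71, 0.0521). It moved the count of called probe sets to 1750, against 917, for Foxl2 loss at E13, and to 309, against 144, for its change between E13 and P0. In the other comparisons, where the numbers do not pair the arrays, no count moved by over 1.5 times.

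Fits of the compared groups alone called 3 probe sets in place of 917 for Foxl2 loss at E13, 355 in place of 181 at E16, 95 in place of 272 at P0, 367 in place of 693 for the mean of stages, 5 in place of 144 for the change between E13 and P0, 33 in place of 362 in Kit mutants and 1 in place of 3 in heterozygotes. They called 306 in place of 779 for Wnt4 loss at E15, 969 in place of 344 for the Foxl2 effect at E16 less the Wnt4 effect at E15, 6778 in place of 11738 for the Kit mutation, 1622 in place of 3371 for control ovaries of E16 over E13 and 0 in place of 8 for the Kit interaction. The filter gave 7950 in place of 13339 for control ovaries of P0 over E16, 168 for Foxl2 loss at P0, 87 for its change with stage and 5 for the Kit interaction. Quantile normalization gave 1734 for Foxl2 loss at E13 and 284 for its change with stage, median scaling 280 for that change and 241 for Foxl2 loss in Kit mutants, and a fit without the trend 0 for heterozygotes. Scaling to the median also turned the split of calls, with 30.5% of calls higher in Kit mutants in place of 62.2% and 67.6% higher in control ovaries of P0 over E16 in place of 25.6%. The same scaling gave 22.2% in place of 62.5% for control ovaries of E16 over E13, 35.3% in place of 52.7% for testes of P0, 40.9% in place of 22.1% for Foxl2 loss at E13 (12.1% with a pseudocount of 16, 41.2% with 5% and 4.17% with the filter), 44.9% in place of 32% for the mean of stages, 67.9% in place of 79.3% for Wnt4 loss at E15 and 30.3% in place of 42.6% for Foxl2 loss in Wnt4-null ovaries. For the differences of effects it gave 46.4% in place of 28.8% (Foxl2 at E16 less Wnt4 at E15), 52.5% in place of 67.5% (Foxl2 by Wnt4) and 44.3% in place of 28.6% (Wnt4 with stage), and quantile normalization 54.9% in place of 43.1% (Foxl2 with stage). With 2 or 3 arrays a group, and Nr5a2 near the pseudocount in the lowest groups, smaller differences cannot be detected.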
